A study of Homo sapiens with 9 samples.

Results

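The kinesins are the family of motor proteins encoded by genes whose symbols begin with KIF or KIFC, and members were taken by symbol, with no measured value in the rule. The family itself and its classes were picked with earlier results of these data known. Of 27059 genes in the deposited table, 41 were kinesins, sorted here by textbook role into 14 mitotic, 15 transport and 12 other members. RNA sequencing covered 9 libraries labelled as PC9/GR, a human lung adenocarcinoma line that had become resistant to the EGFR inhibitor gefitinib. Of these, 3 carried hairpin RNA sh1-HUMT, 3 carried sh2-HUMT and 3 carried the control hairpin shNC. HUMT is a long noncoding RNA, listed as LINC00857 in RefSeq, and the series title places the work in chemoresistance and glycolysis of lung adenocarcinoma. All libraries shared the parental line, RPMI 1640 medium with serum, Trizol extraction and BGI500 library preparation. The labels do not say how hairpins were delivered, whether each line was a pool or a clone, how long cells grew afterwards, whether gefitinib was in the medium, or whether replicates were separate cultures. The p-values therefore measure the spread between these libraries, which may be technical.

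Kinesins are ATP-driven motors that step along microtubules, most of them towards the plus end, which usually lies away from the cell centre. A mitotic group builds and shortens spindle microtubules, moves chromosomes and organises the midzone during cell division, and its genes are mostly expressed late in the cell cycle. A transport group carries vesicles, organelles and protein complexes in cells that are not dividing as well as in those that are. Members of the kinesin-14 branch, KIFC1, KIFC2 and KIFC3, have the motor domain at the C-terminal end, and KIFC1 and KIFC3 are known to step towards the minus end.

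Promoter sequences are shown first because they hold a feature, known for mitotic genes, that the symbols did not use. RefSeq windows of assembly GRCh38.p14, each 300 bases long with 250 before the gene start, were found for 33 of the 41 kinesins. The cell cycle genes homology region, found in many genes of the late cell cycle, was searched on both strands as TTTGAA or, in a variant spelling of the motif, TTCGAA. It stood in 11 of 14 mitotic windows (78.6%), 1 of 11 transport windows (9.09%) and 1 of 8 other windows (12.5%), against 4539 of 27305 windows of all genes (16.6%). CCAAT, the letters of the box bound by the factor NF-Y, stood in 78.6% of mitotic, 27.3% of transport and 37.5% of other windows, against 35.7% of all. Both stood together in 71.4% of mitotic windows, 9.09% of transport windows, 12.5% of other windows and 6.58% of all windows. GGGCGG, the letters of the GC box, did not divide the classes in this way, at 92.9%, 81.8% and 100% of mitotic, transport and other windows, against 44.6% of all. A match describes the letters of a window and not a bound site, and these motifs were looked for because of their known link with mitotic genes. The 14 mitotic windows include that of KIF4B, a near-copy of KIF4A whose level was too low to test. Around both motifs its window closely repeats that of KIF4A, so these windows are not independent of each other. The windows below run 5′ to 3′ on the strand of the gene, with both motifs in capitals on either strand, so that a capital run TTCAAA is the first motif and a capital run ATTGG is the second motif on the opposite strand. KIF18B (chr17:44947724-44948023, minus strand), KIF11 (chr10:92592880-92593179, plus strand) and KIFC1 (chr6:33391573-33391872, plus strand) hold both motifs. KIF20A (chr5:138178862-138179161, plus strand) is a mitotic member with CCAAT alone. KIF3B (chr20:32277401-32277700, plus strand) is a transport member with CCAAT alone. KIF5B (chr10:32056376-32056675, minus strand) is the transport member that holds both.
KIF18B: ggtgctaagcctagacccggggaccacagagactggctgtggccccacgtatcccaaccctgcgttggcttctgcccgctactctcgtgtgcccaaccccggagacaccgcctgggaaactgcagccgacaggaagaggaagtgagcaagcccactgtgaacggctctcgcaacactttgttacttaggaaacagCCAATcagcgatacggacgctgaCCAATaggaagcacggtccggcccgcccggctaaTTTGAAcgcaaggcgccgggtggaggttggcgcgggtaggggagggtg
KIF11: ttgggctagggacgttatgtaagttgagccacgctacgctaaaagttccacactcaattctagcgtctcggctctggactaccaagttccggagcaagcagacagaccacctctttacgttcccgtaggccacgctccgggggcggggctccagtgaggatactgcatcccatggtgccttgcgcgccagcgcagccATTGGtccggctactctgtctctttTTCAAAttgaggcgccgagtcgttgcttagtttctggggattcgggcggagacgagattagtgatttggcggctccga
KIFC1: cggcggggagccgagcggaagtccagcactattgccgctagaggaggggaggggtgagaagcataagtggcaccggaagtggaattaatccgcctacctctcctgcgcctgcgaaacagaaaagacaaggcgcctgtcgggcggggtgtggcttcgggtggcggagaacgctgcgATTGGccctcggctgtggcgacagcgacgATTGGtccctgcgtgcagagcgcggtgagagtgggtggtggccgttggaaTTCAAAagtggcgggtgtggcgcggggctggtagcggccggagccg
KIF20A: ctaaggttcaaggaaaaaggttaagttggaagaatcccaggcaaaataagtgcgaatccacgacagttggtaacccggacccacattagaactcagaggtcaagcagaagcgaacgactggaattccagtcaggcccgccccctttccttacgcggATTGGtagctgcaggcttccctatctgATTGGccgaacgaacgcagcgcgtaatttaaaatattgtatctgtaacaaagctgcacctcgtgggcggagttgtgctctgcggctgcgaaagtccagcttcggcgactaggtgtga
KIF3B: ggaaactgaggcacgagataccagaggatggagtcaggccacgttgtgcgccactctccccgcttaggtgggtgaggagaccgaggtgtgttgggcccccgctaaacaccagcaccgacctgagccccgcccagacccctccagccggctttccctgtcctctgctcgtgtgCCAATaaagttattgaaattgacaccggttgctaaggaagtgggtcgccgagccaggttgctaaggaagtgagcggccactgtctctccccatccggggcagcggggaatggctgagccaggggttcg
KIF5B: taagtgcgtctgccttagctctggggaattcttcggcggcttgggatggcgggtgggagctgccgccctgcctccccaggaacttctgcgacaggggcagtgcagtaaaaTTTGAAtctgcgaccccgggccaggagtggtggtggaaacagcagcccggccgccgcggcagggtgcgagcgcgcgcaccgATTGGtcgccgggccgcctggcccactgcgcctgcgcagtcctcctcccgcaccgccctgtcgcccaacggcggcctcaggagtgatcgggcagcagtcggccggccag
In 10 of the 11 mitotic windows with the motif it began within 40 bases of the gene's first base, and in KIF23 it began at position −55, counted so that the first base is 0. In KIF5B it began at position −140, farther upstream than in any mitotic window. KIF2A, KIF2C and KIF20A were the mitotic members without the motif.

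HUMT itself was not detectably lower in the libraries labelled with hairpins against it. Its level was 9.17, 9.58 and 10.1 CPM (counts scaled to library size) in the libraries labelled sh1-HUMT, 8.75, 9.60 and 8.50 CPM in those labelled sh2-HUMT and 9.36, 9.85 and 8.51 CPM in shNC. The 3 groups overlapped, with log2 changes of 0.06 (95% interval −0.14 to 0.25, adjusted p = 0.685) and −0.05 (−0.24 to 0.15, adjusted p = 0.74), so groups are named throughout as they were labelled. Column headers of the table name another lung line, A549, with NC, Si_1 and Si_2, and a design text attached to the series describes another study, so every comparison rests on matching arms and replicate numbers. Of 10 epithelial markers 8 averaged at least 1 CPM, and their sum was 4270 to 4550 CPM in sh1-HUMT, 4380 to 4430 in sh2-HUMT and 5410 to 5640 in shNC. The lung lineage markers NKX2-1 and SFTPB averaged 0.121 and 0.415 CPM, and the retinal marker RCVRN was at 0 in every library. Blood markers, mostly CD68, summed to 35.6 to 38.3, 37.6 to 39.3 and 50.6 to 53.4 CPM in the same order of groups, neuroendocrine markers to 9.71 to 11.4, 10.6 to 12.2 and 7.95 to 8.56, and fibroblast markers to 21.8 to 22.7, 24.6 to 26.2 and 16.3 to 20.6. Endothelial markers summed to 1.32 to 2.64 CPM and photoreceptor markers to under 0.5 CPM over all libraries. The part of these marker differences in the kinesin values was not tested. Library totals ran from 21891060 to 22159921 estimated counts.

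Kinesin transcripts as a whole were more abundant in the hairpin-labelled libraries. The 41 genes took 0.199%, 0.195% and 0.198% of all counts in sh1-HUMT, 0.199%, 0.195% and 0.198% in sh2-HUMT and 0.172%, 0.174% and 0.172% in shNC. Both hairpin groups lay above the shNC group, without overlap. In such bulk RNA, more cells of a kind (cells in mitosis, for example) and more RNA per cell cannot be told apart. A gene was called changed at an adjusted p under 0.05 in edgeR's quasi-likelihood test, adjusted over the 18540 genes tested, of which 39 were kinesins. KIF4B, with 0 to 8 counts per library, and KIF19, with 0 to 1, were too low to test, and the mitotic depolymerase KIF2B is not analysed here. Against shNC, 22 kinesins were called in sh1-HUMT, 18 higher and 4 lower, where 31.9% of all genes tested were called, 15.7% higher and 16.3% lower. In sh2-HUMT 21 were called, 19 higher and 2 lower, where 32.5% of all genes were called, 15.9% higher and 16.5% lower. All 3 libraries of the group lay above all 3 of shNC for 21 kinesins in sh1-HUMT (22.0% of all genes) and 20 in sh2-HUMT (23.2%), and below them for 5 (22.3%) and 3 (23.4%). The median log2 change of the 39 was 0.13 in sh1-HUMT and 0.12 in sh2-HUMT, beside medians of 0 over all genes. A higher share is called among well-expressed genes, so the count was repeated for genes averaging at least 10 CPM. There, 17 of 30 kinesins were higher and 3 lower in sh1-HUMT, where 21.3% of all such genes were higher and 23.9% lower. In sh2-HUMT 17 of the 30 were higher and 1 lower, where 21.0% were higher and 24.6% lower. Both comparisons use the same shNC libraries and are therefore not independent. Called higher in both were 16 kinesins, where 12.3% of all genes were, and called lower in both were 2, KIF1A and KIF21B, where 12.8% of all genes were. The 15 kinesins called in neither were KIF15, KIF18A, KIF22, KIF3A, KIF5A, KIF5B, KIF5C, KIF16B, KIF6, KIF9, KIF21A, KIF24, KIF25, KIF26B and KIF27.

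**Figure D1:**
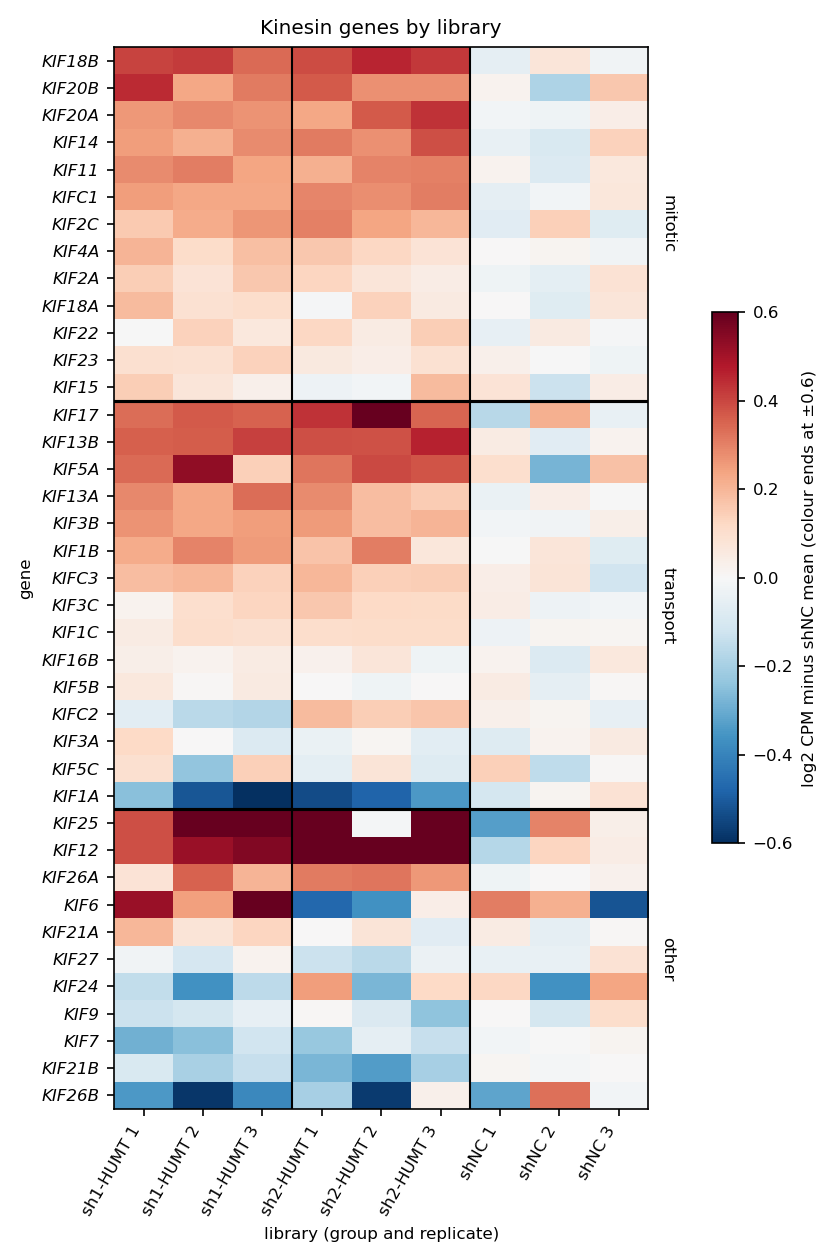
Each row is 1 of the 39 tested kinesins and each column 1 library, and colour gives the log2 CPM of that library minus the shNC mean of the gene, with colours ending at 0.6 in either direction. Mitotic rows are red throughout most of the 6 hairpin-labelled columns, transport rows are mixed, and KIF1A is blue in both hairpin groups.

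Mitotic kinesins rose in the hairpin-labelled groups or were not called. Of 13 tested, 10 rose in sh1-HUMT and 8 rose in sh2-HUMT, where 15.7% and 15.9% of all genes tested rose. None fell by edgeR or DESeq2, nor was any lower at an unadjusted p under 0.05, where 16.3% and 16.5% of all genes fell, and all 13 fitted values were above 0 in both. The class median was 0.21 in sh1-HUMT and 0.24 in sh2-HUMT on the log2 scale. All 8 that rose in sh2-HUMT also rose in sh1-HUMT. Per library, the class median against the shNC mean was 0.205, 0.214 and 0.234 in sh1-HUMT, 0.211, 0.235 and 0.201 in sh2-HUMT and −0.018, −0.024 and 0.046 in shNC.

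Motors of the spindle and its microtubule ends included the class's largest change. KIF18B, which works at the plus ends of astral microtubules, stood at 64.2, 64.7 and 61.3 CPM in the libraries labelled sh1-HUMT, 63.5, 66.4 and 64.9 CPM in those labelled sh2-HUMT and 46.6, 50.9 and 47.7 CPM in the shNC libraries. Every hairpin-labelled library was above every shNC library. The log2 change was 0.39 (SE 0.0427, adjusted p = 2.9e-05) in sh1-HUMT and 0.42 (SE 0.0427, adjusted p = 1.3e-05) in sh2-HUMT, 1.31-fold and 1.34-fold. KIF11, also known as Eg5, slides antiparallel microtubules to push the spindle poles apart, and it stood at 72.1, 73.2 and 69.8 CPM in sh1-HUMT, 68.6, 72.7 and 72.9 CPM in sh2-HUMT and 60, 55.9 and 61.9 CPM in shNC. Its groups did not overlap between hairpin and control, and it changed by 0.28 (SE 0.0444, adjusted p = 5.6e-04) and 0.27 (SE 0.0444, adjusted p = 6.2e-04). KIFC1, which focuses spindle poles and clusters extra centrosomes, stood at 38.2, 37.6 and 37.7 CPM in sh1-HUMT, 39.2, 38.9 and 39.6 CPM in sh2-HUMT and 30.8, 31.7 and 33.6 CPM in shNC. Again each hairpin-labelled library exceeded each shNC library, with changes of 0.24 (SE 0.0425, adjusted p = 0.00109) in sh1-HUMT and 0.29 (SE 0.0424, adjusted p = 2.4e-04) in sh2-HUMT. KIF2C, or MCAK, takes apart microtubule ends at centromeres and corrects wrong attachments. Its levels were 48.6, 50.8 and 52.3 CPM in sh1-HUMT, 53.7, 51.2 and 50.1 CPM in sh2-HUMT and 41.5, 48.1 and 41.3 CPM in shNC. The highest shNC library, replicate 2 at 48.1 CPM, lay just under the lowest sh1-HUMT library at 48.6 CPM, and the changes were 0.21 (SE 0.0594, adjusted p = 0.0165) and 0.24 (SE 0.0593, adjusted p = 0.0076). KIF2A, the related depolymerase at spindle poles, rose in sh1-HUMT by 0.13 (adjusted p = 0.0439), and its sh2-HUMT value was 0.08 (adjusted p = 0.203). KIF18A, which damps chromosome movements, and KIF15, which can share the work of KIF11, were not called, with values of 0.13 and 0.08 in sh1-HUMT and 0.06 and 0.05 in sh2-HUMT.

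Of the motors of the midzone and of cytokinesis, KIF20A, KIF14, KIF4A and KIF20B rose in both comparisons. KIF20A, which brings the chromosomal passenger complex to the midzone, stood at 59.7, 61 and 60.2 CPM in the libraries labelled sh1-HUMT, 58.6, 64.4 and 67.5 CPM in those labelled sh2-HUMT and 49.3, 49.1 and 51.4 CPM in the shNC libraries. Hairpin and control groups did not overlap, and the changes were 0.27 (SE 0.0493, adjusted p = 0.00123) and 0.35 (SE 0.0491, adjusted p = 2.0e-04). KIF14, needed for the last steps of cytokinesis and for placing citron kinase, stood at 41, 40.1 and 42 CPM in sh1-HUMT, 42.9, 41.8 and 45.2 CPM in sh2-HUMT and 33.5, 32.4 and 38 CPM in shNC. All hairpin-labelled libraries were above all shNC libraries, and it changed by 0.25 (SE 0.0586, adjusted p = 0.00682) and 0.32 (SE 0.0584, adjusted p = 0.00115). KIF4A, a chromosome-binding motor that sets midzone length with PRC1, stood at 53.4, 50.1 and 52.5 CPM in sh1-HUMT, 51.8, 50.4 and 49 CPM in sh2-HUMT and 46.4, 46.9 and 45.7 CPM in shNC. Its smaller difference also left the groups apart, at 0.17 (SE 0.0403, adjusted p = 0.00759) and 0.12 (SE 0.0404, adjusted p = 0.0361). Reads of KIF4A may be split with its intronless near-copy KIF4B, which was listed at no more than 8 counts. KIF20B, a midzone motor, changed by 0.33 (SE 0.0825, adjusted p = 0.0111) and 0.30 (SE 0.0826, adjusted p = 0.0168).

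The mitotic kinesins of highest level per transcript length were among those with the smallest changes. On the deposited expression values, taken as FPKM (fragments scaled to transcript length and library size), KIF22 averaged 27.3 and KIF23 averaged 22.7. KIF22, a chromosome-arm motor, stood at 59.5, 65.5 and 62.2 CPM in sh1-HUMT, 64.8, 61.7 and 65.9 CPM in sh2-HUMT and 57.5, 61.8 and 59.3 CPM in shNC. The groups overlapped, and neither value was called, at 0.07 (SE 0.0457, adjusted p = 0.301) and 0.11 (SE 0.0457, adjusted p = 0.0964). KIF23 forms centralspindlin with RACGAP1, and it stood at 73.5, 73.2 and 75.6 CPM in sh1-HUMT, 71.5, 70.7 and 73.1 CPM in sh2-HUMT and 70.1, 68.6 and 67.4 CPM in shNC. Hairpin libraries were all higher, but the difference passed the test in sh1-HUMT only, at 0.11 (SE 0.0331, adjusted p = 0.0256), while sh2-HUMT gave 0.06 (SE 0.0332, adjusted p = 0.18), and the hairpin groups were not called different from each other (adjusted p = 0.636). Calls in sh1-HUMT ended for KIF2C without sh1-HUMT replicate 3, shNC replicate 1 or shNC replicate 3 (adjusted p = 0.0612, 0.0694 and 0.0648), and for KIF23 without sh1-HUMT replicate 3 or shNC replicate 3 (0.0888 and 0.0706). For KIF2A they ended without sh1-HUMT replicate 1 or 3, any sh2-HUMT replicate, or shNC replicate 1 or 2 (0.0506 to 0.131), and in sh2-HUMT for KIF20B without sh2-HUMT replicate 1 (0.0633) and for KIF4A without sh2-HUMT replicate 1 or 2 or shNC replicate 1 or 3 (0.0674 to 0.126).

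**Figure D2:**
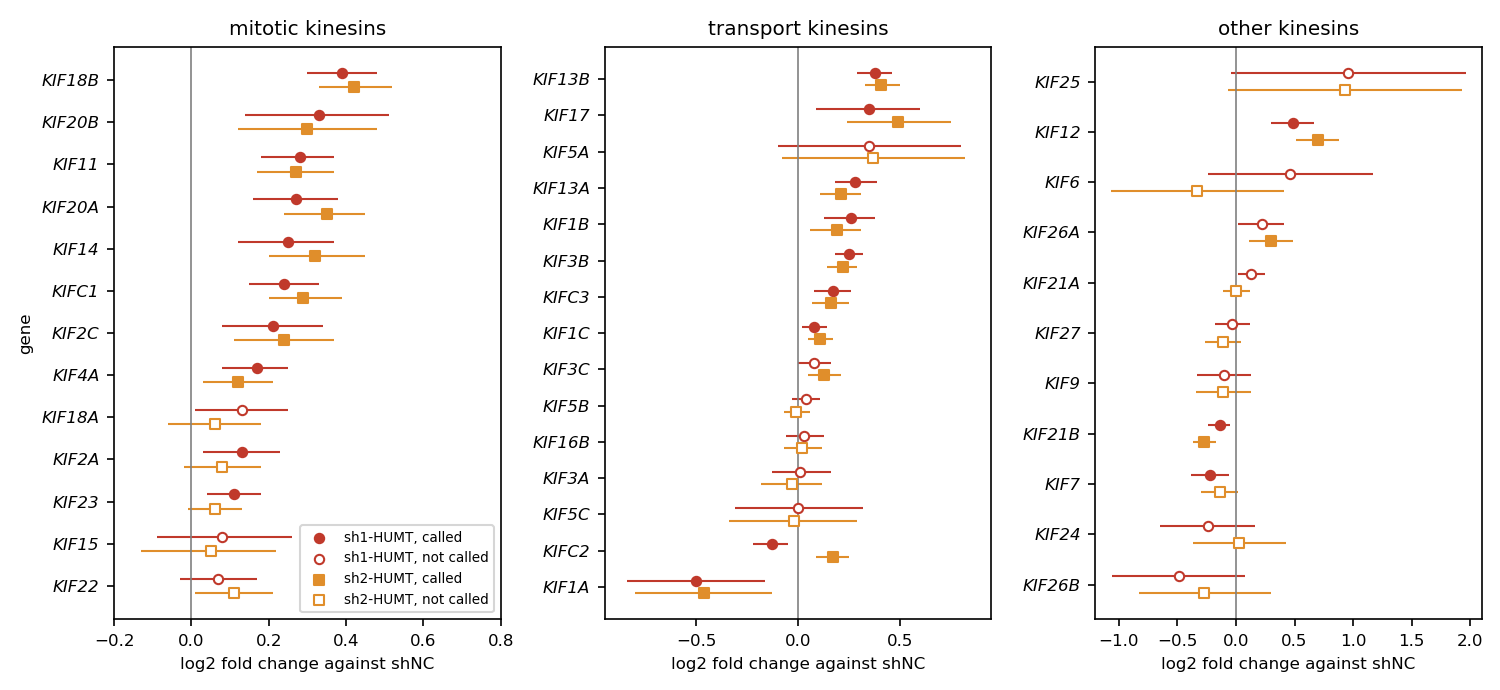
Points give the log2 fold change of each tested kinesin against shNC, red circles for sh1-HUMT above orange squares for sh2-HUMT, and bars are 95% intervals of the fit; filled points passed the adjusted p of 0.05, and the 3 panels have different horizontal scales. All 13 mitotic points lie right of 0 in both hairpin groups, whereas transport and other members lie on both sides, and KIFC2 is filled on opposite sides.

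Transport kinesins changed in both directions. Of 15 tested, 7 rose and 2 fell in sh1-HUMT, where 15.7% of all genes tested rose and 16.3% fell, and 9 rose and 1 fell in sh2-HUMT, where 15.9% rose and 16.5% fell. The median log2 changes of the class were 0.08 and 0.16. Among the kinesin-3 motors, which carry vesicles and endosomes, KIF13B stood at 83.4, 83.5 and 86.4 CPM in the libraries labelled sh1-HUMT, 85, 84.8 and 89.6 CPM in those labelled sh2-HUMT and 67.3, 61.9 and 65.8 CPM in the shNC libraries. KIF13B is known to carry membrane proteins and the scaffold DLG1, and its hairpin-labelled libraries were all higher, at 0.38 (SE 0.0396, adjusted p = 1.9e-05) and 0.41 (SE 0.0395, adjusted p = 8.8e-06), the smallest adjusted p of the family. KIF13A, which carries endosomal and recycling cargo, stood at 53.6, 51.5 and 55.3 CPM in sh1-HUMT, 53.4, 50 and 48.8 CPM in sh2-HUMT and 42.7, 45.2 and 43.9 CPM in shNC. It rose in both, by 0.28 (SE 0.0466, adjusted p = 6.4e-04) and 0.21 (SE 0.0468, adjusted p = 0.00474), without overlap. KIF1B, a carrier of mitochondria and vesicle precursors, stood at 77.8, 82 and 79.6 CPM in sh1-HUMT, 75.2, 82.7 and 69.9 CPM in sh2-HUMT and 66.6, 70.2 and 63.5 CPM in shNC. The sh1-HUMT libraries were all above shNC, while sh2-HUMT replicate 3 overlapped shNC, and the changes were 0.26 (SE 0.0577, adjusted p = 0.00521) and 0.19 (SE 0.0579, adjusted p = 0.0288). KIF1C, which moves secretory vesicles and integrins, stood at 133, 138 and 137 CPM in sh1-HUMT, 138, 138 and 139 CPM in sh2-HUMT and 126, 130 and 129 CPM in shNC. This difference was among the smallest called, at 0.08 (SE 0.0267, adjusted p = 0.0327) and 0.11 (SE 0.0266, adjusted p = 0.00824), and the groups did not overlap. KIF1A, the neuronal synaptic vesicle motor, ranged from 2.64 to 3.74 CPM in sh1-HUMT, 3.05 to 3.49 in sh2-HUMT and 4.14 to 4.75 in shNC, and it fell by 0.50 (adjusted p = 0.0271) and by 0.46 (adjusted p = 0.0369). The endosome motor KIF16B was not called, at 0.03 and 0.02.

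Within kinesin-2, the motors of cilia and of some vesicles, only KIF3B and KIF17 were called in both comparisons. KIF3B stood at 88, 85.6 and 87 CPM in the libraries labelled sh1-HUMT, 87.2, 82.9 and 84 CPM in those labelled sh2-HUMT and 72.2, 72 and 74.7 CPM in the shNC libraries. Hairpin and control libraries did not overlap, at 0.25 (SE 0.0329, adjusted p = 1.2e-04) and 0.22 (SE 0.033, adjusted p = 3.6e-04). Its heterodimer partner KIF3A was not called, at 0.01 and −0.03 (adjusted p = 0.9 and 0.771). Another kinesin-2 motor, KIF3C, rose in sh2-HUMT by 0.13 (adjusted p = 0.0164) beside 0.08 in sh1-HUMT (0.108). KIF17, a homodimeric member studied in dendrites and cilia, stood at 9.08, 9.31 and 9.2 CPM in sh1-HUMT, 9.74, 11.7 and 9.17 CPM in sh2-HUMT and 6.4, 8.34 and 6.96 CPM in shNC. All hairpin-labelled libraries exceeded the shNC libraries, with changes of 0.35 (SE 0.117, adjusted p = 0.0408) and 0.49 (SE 0.117, adjusted p = 0.00635). The conventional kinesin heavy chain KIF5B, which carries mitochondria, lysosomes and many other cargoes, stood at 186, 179 and 185 CPM in sh1-HUMT, 179, 175 and 179 CPM in sh2-HUMT and 185, 172 and 179 CPM in shNC. KIF5B, at a mean of 30.8 FPKM, did not pass the test, at 0.04 (SE 0.0305, adjusted p = 0.343) and −0.01 (SE 0.0305, adjusted p = 0.887). Its relatives KIF5A and KIF5C, used mainly in neurons, averaged 0.403 and 0.663 FPKM and were not called either. The highest kinesin per length was KIFC3, a minus-end motor of adherens junctions and apical vesicles, at a mean of 60.3 FPKM. KIFC3 stood at 247, 249 and 239 CPM in sh1-HUMT, 249, 240 and 241 CPM in sh2-HUMT and 223, 229 and 201 CPM in shNC. It rose by 0.17 (SE 0.0426, adjusted p = 0.00938) and 0.16 (SE 0.0427, adjusted p = 0.013), with shNC replicate 3 the lowest library. Its gene body overlaps the noncoding gene LOC388282, which had 394 to 604 counts per library, and reads shared by them cannot be told apart.

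Several transport calls ended with a correction for transcript composition or with 1 library left out. Transcripts of transport kinesins had a median GC content of 51.4% and a median length of 6103 bases, against 42.3% and 3723 bases for mitotic kinesins and 48.7% and 3461 bases for all tested genes with a transcript. After correction for GC content and length, 4 transport kinesins rose in each comparison, and 2 fell in sh1-HUMT and 1 in sh2-HUMT, with medians of 0.04 in both. The mitotic class then had 11 and 10 higher and medians of 0.21 and 0.25. Of all genes tested under that correction, 14.5% rose and 15.7% fell in sh1-HUMT, and 14.2% rose and 17% fell in sh2-HUMT. That correction ended the calls of KIF1B (adjusted p = 0.142 in sh1-HUMT and 0.307 in sh2-HUMT), KIF17 in sh1-HUMT (0.0742) and KIF3C and KIFC3 in sh2-HUMT (0.453 and 0.302), and turned KIF1C to −0.03 and −0.01. Without sh2-HUMT replicate 1, the sh2-HUMT calls of KIFC3 (0.0543) and KIF3C (0.0655) ended. KIF1B lost its sh2-HUMT call without sh2-HUMT replicate 1 or 2 or shNC replicate 1 or 3 (0.0644 to 0.101). KIF1C lost its sh1-HUMT call without sh1-HUMT replicate 2 or 3, sh2-HUMT replicate 3 or shNC replicate 1 (0.0515 to 0.113). KIF17 lost its sh1-HUMT call without any sh1-HUMT replicate, sh2-HUMT replicate 1 or shNC replicate 1 or 3 (0.054 to 0.146). KIF1A lost its sh1-HUMT call without sh1-HUMT replicate 2 or 3 or shNC replicate 2 or 3 (0.0623 to 0.103), and its sh2-HUMT call without any sh2-HUMT replicate or shNC replicate 2 or 3 (0.0536 to 0.111).

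Set side by side, the mitotic class median exceeded the transport class median by 0.13 in sh1-HUMT and by 0.08 in sh2-HUMT on the log2 scale. In single libraries the mitotic minus transport difference was 0.084, 0.110 and 0.098 in sh1-HUMT, 0.038, 0.091 and 0.084 in sh2-HUMT and −0.039, −0.040 and 0.037 in shNC. Each hairpin-labelled library lay above each shNC library, but sh2-HUMT replicate 1, at 0.038, was next to shNC replicate 3, at 0.037. The members are not replicates of a class, so no test is given. With DESeq2, or with no filter on low counts, the difference was 0.11 in sh1-HUMT and only 0.02 in sh2-HUMT. Both settings tested 41 kinesins and so took KIF4B, too low for the main test, into the mitotic class. The mitotic median in sh2-HUMT was then 0.18, against 0.24 in the main fit, and the transport median stayed at 0.16. Over members averaging at least 5 CPM the difference was 0.08 in both comparisons. Leaving out shNC replicate 1 lowered the differences to 0.07 and 0.03, and leaving out shNC replicate 2 lowered that of sh2-HUMT to 0.04. Leaving KIFC2 out of the transport class lowered that of sh1-HUMT to 0.08 and raised that of sh2-HUMT to 0.10, so their order depended on KIFC2. With the GC and length correction the differences were 0.18 and 0.20.

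**Figure D3:**
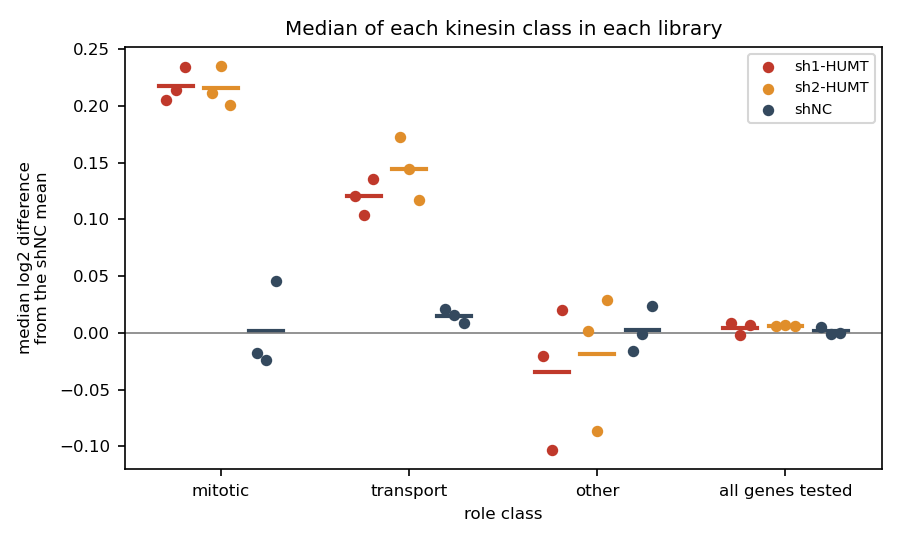
Each point is 1 library's median, over the tested genes of a class, of the log2 difference from the shNC mean, and short bars are group means. Mitotic medians of hairpin-labelled libraries lie between 0.201 and 0.235 and transport medians between 0.104 and 0.173, while the medians of all genes tested stay near 0.

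KIFC2 was the kinesin whose level differed between the hairpin groups. It is a C-terminal motor described in mouse neurons as a carrier in dendrites, and it was singled out with its opposite calls in these data already known, so its values describe and do not test. KIFC2 stood at 73.6, 68.7 and 68.1 CPM in the libraries labelled sh1-HUMT, 87.8, 85.4 and 86.5 CPM in those labelled sh2-HUMT and 78.7, 77.9 and 74.4 CPM in the shNC libraries. The sh1-HUMT libraries were all below and the sh2-HUMT libraries all above the shNC libraries. The log2 change was −0.13 (SE 0.0386, adjusted p = 0.0193) in sh1-HUMT and 0.17 (SE 0.0382, adjusted p = 0.00496) in sh2-HUMT, and sh2-HUMT against sh1-HUMT it was 0.30 (SE 0.0383, adjusted p = 0.0095), a fold of 1.23. Of the 18540 genes tested it was the 1 gene (0.00539%) called in opposite directions against shNC, and between the hairpin groups 0.286% of all genes were called, 0.108% higher and 0.178% lower in sh2-HUMT. Of the other 38 tested kinesins none was called between the hairpin groups by edgeR or by DESeq2, while 1 was higher and 3 lower at an unadjusted p under 0.05 in edgeR. Over all 38, whether or not they passed that threshold, log2 changes ran from −0.79 in KIF6 to 0.27 in KIF24. The sh2-HUMT libraries lay all above the sh1-HUMT libraries for 4 kinesins (8.75% of all genes) and all below them for 4 (9.63%). In FPKM, KIFC2 stood at 19.42, 18.09 and 17.71 in sh1-HUMT, 22.89, 21.82 and 21.83 in sh2-HUMT and 19.83, 20.86 and 18.96 in shNC. On that scale sh1-HUMT overlapped shNC, while sh2-HUMT stayed above both. The other kinesin-14 motors, KIFC1 and KIFC3, were higher in both hairpin groups and not called between them (adjusted p = 0.67 and 0.955).

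Calls of KIFC2 were among those that ended under other processing. Its longest annotated transcript has a GC content of 68.1%, and after the GC and length correction its changes were −0.17 (adjusted p = 0.0103), 0.03 (0.655) and 0.20 (0.0946) in sh1-HUMT against shNC, sh2-HUMT against shNC and sh2-HUMT against sh1-HUMT, so the last 2 calls ended. The sh1-HUMT call also ended without sh1-HUMT replicate 2 or 3 or shNC replicate 1 or 2 (0.0525, 0.075, 0.0799 and 0.059), and the call between hairpin groups ended without sh2-HUMT replicate 1, 2 or 3 (0.0667, 0.051 and 0.0557). The gene bodies of FOXH1 and TMEM276 overlap that of KIFC2 in RefSeq, and counting was not stated to use strand, so reads shared by the genes cannot be told apart. TMEM276 is not analysed here. FOXH1 had 60, 41 and 57 counts in sh1-HUMT, 12, 79 and 56 in sh2-HUMT and 13, 29 and 26 in shNC. The part of shared reads in the KIFC2 values was not tested. The neighbouring gene CYHR1, which does not overlap KIFC2, changed by 0.02 in sh1-HUMT (adjusted p = 0.557) and 0.08 in sh2-HUMT (0.0496).

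**Figure D4:**
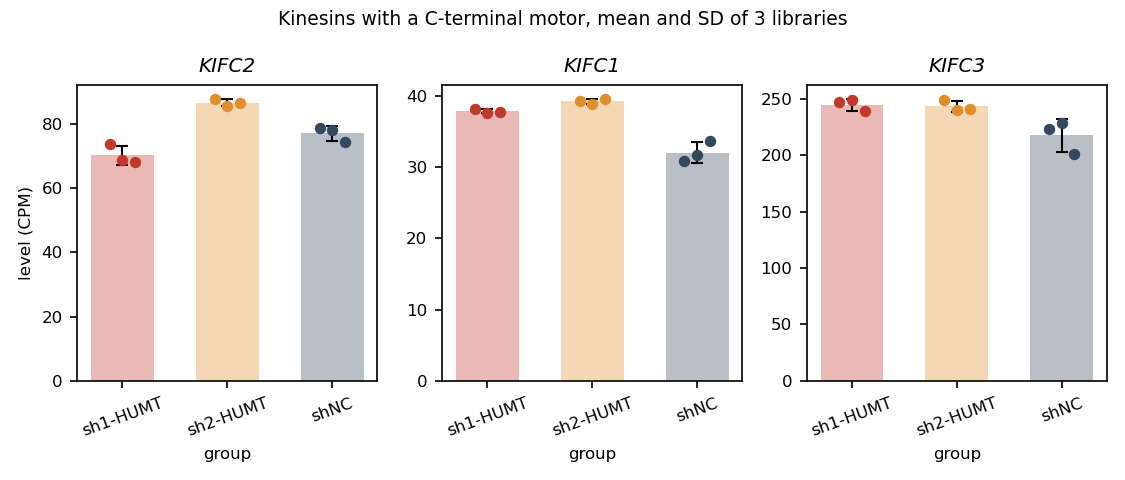
Bars are means and error bars SDs of the 3 libraries of each group in CPM for KIFC2, KIFC1 and KIFC3, and points are single libraries. KIFC2 averages 70.2 in sh1-HUMT, 86.5 in sh2-HUMT and 77.0 in shNC, whereas KIFC1 and KIFC3 are above shNC in both hairpin groups.

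The remaining kinesins, of cilia, hedgehog signalling, microtubule tips or little-studied function, were called about as often as genes in general. Of 11 tested, 3 were called in sh1-HUMT, 1 higher and 2 lower, and 3 in sh2-HUMT, 2 higher and 1 lower, where 31.9% and 32.5% of all genes were called. Medians were −0.03 and −0.11, and so few calls show nothing about the class as a whole. KIF12, a motor of kidney and liver epithelia whose mutation in humans causes cholestasis, had the largest called rise of the whole family. It stood at 15, 16.5 and 16.9 CPM in the libraries labelled sh1-HUMT, 18.6, 18.4 and 18.9 CPM in those labelled sh2-HUMT and 10.2, 12.5 and 11.8 CPM in the shNC libraries. Each hairpin-labelled library was above each shNC library, with changes of 0.49 (SE 0.0834, adjusted p = 8.5e-04) and 0.70 (SE 0.0828, adjusted p = 5.0e-05). The sh2-HUMT libraries were also all above the sh1-HUMT libraries, but that difference of 0.21 was not called (adjusted p = 0.326). KIF21B, which slows and pauses microtubule growth, stood at 50.9, 47.4 and 49.2 CPM in sh1-HUMT, 44.8, 43 and 47.2 CPM in sh2-HUMT and 54.6, 53.7 and 54.4 CPM in shNC. It was lower in every hairpin-labelled library, at −0.14 (SE 0.0438, adjusted p = 0.0271) and −0.27 (SE 0.0441, adjusted p = 5.7e-04). KIF21A, its relative and with KIF12 the highest of the class per length at 6.15 and 7.11 FPKM, stood at 44.2, 40.6 and 42.2 CPM in sh1-HUMT, 38.6, 40.6 and 36.7 CPM in sh2-HUMT and 39.8, 37.2 and 38.7 CPM in shNC. It was not called, at 0.13 (SE 0.0506, adjusted p = 0.0609) and 0.00 (SE 0.0509, adjusted p = 0.965). KIF7, which organises the ciliary tip in hedgehog signalling, fell by 0.22 in sh1-HUMT (adjusted p = 0.0373), beside −0.14 in sh2-HUMT (0.168). KIF26A, an atypical kinesin without motor activity, rose by 0.30 in sh2-HUMT (adjusted p = 0.0207), beside 0.22 in sh1-HUMT (0.0808). Leaving out sh1-HUMT replicate 2 or 3 or any shNC replicate ended the sh1-HUMT call of KIF21B (0.0519 to 0.0815). Leaving out sh1-HUMT replicate 1 or 2, sh2-HUMT replicate 3 or any shNC replicate ended that of KIF7 (0.0509 to 0.128), and leaving out sh2-HUMT replicate 1 or 2 or shNC replicate 1 ended the sh2-HUMT call of KIF26A (0.0579 to 0.06), which also ended with the GC and length correction (0.395).

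**Figure D5:**
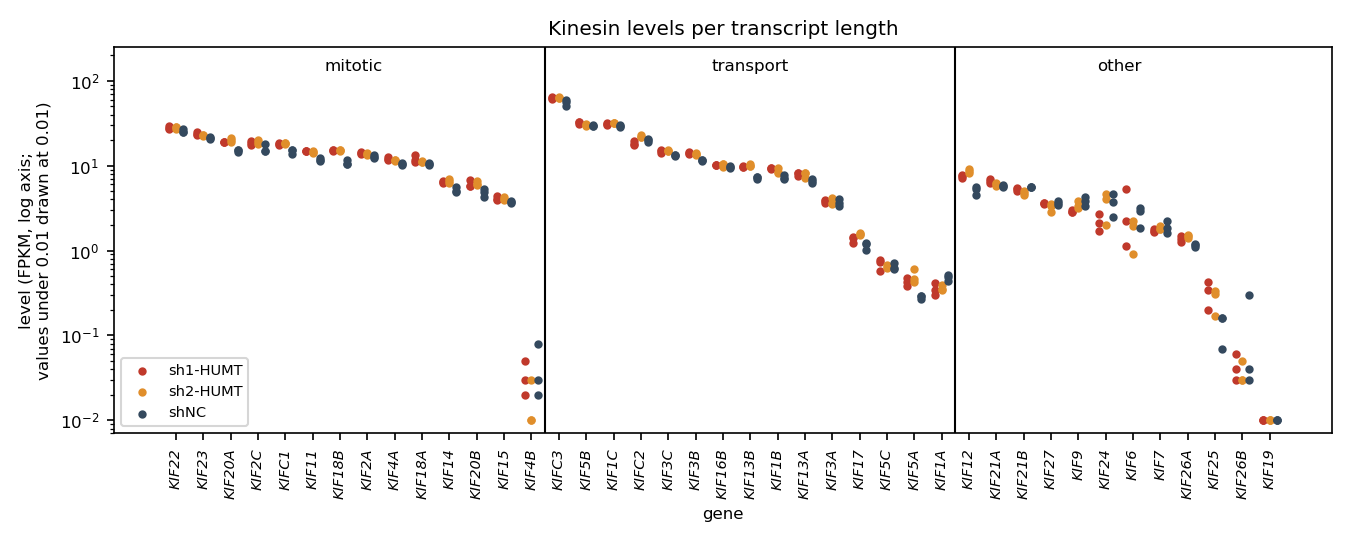
Points are single libraries' FPKM for each of the 41 kinesins on a log axis, with values under 0.01 drawn at 0.01, ordered within each class by mean level. KIFC3 is highest at a mean of 60.3 FPKM, KIF19 lies at the floor and KIF4B near it, and group differences are small beside differences between genes.

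Genes that work with the kinesins are given by list. Of 27 genes that act with mitotic kinesins or control their expression, 19 rose in sh1-HUMT and 17 in sh2-HUMT, where 15.7% and 15.9% of all genes tested rose and 16.3% and 16.5% fell, and the medians were 0.17 and 0.15. None of the 27 fell by edgeR or DESeq2, 1 was lower at an unadjusted p under 0.05 in sh1-HUMT and 0 in sh2-HUMT, and 1 fell in sh2-HUMT after the GC and length correction. INCENP, a subunit of the passenger complex that KIF20A carries, rose by 0.52 in both (adjusted p = 1.4e-06 in each). ECT2, the cytokinesis factor recruited by KIF23 and RACGAP1, rose by 0.39 and 0.33 (1.4e-06 and 5.8e-06). CENPE, a kinesin-7 of kinetochores outside the symbol rule, rose by 0.32 and 0.42 (0.02 and 0.00425). CDK1, the kinase that starts mitosis, was not called, at −0.10 and −0.07 (0.0769 and 0.209). Of 25 cargo adaptors of transport kinesins, 4 rose and 3 fell in sh1-HUMT, and 6 rose and 4 fell in sh2-HUMT, with medians of 0 and 0.03. The sh1-HUMT counts lie near the shares of all genes just given. The mitochondrial adaptors parted, with TRAK1 higher by 0.28 and 0.26 (3.2e-04 and 5.7e-04) and TRAK2 changed by −0.24 and −0.30 (6.3e-04 and 1.1e-04). The kinesin light chains KLC1 and KLC2 were not called, and KLC4 rose by 0.20 in both (0.0178 and 0.0155). Of 23 tested genes of dynein and dynactin, the minus-end motor that shares these tracks, 3 rose and 6 fell in sh1-HUMT, and 2 rose and 8 fell in sh2-HUMT, beside the same shares of all genes, with medians of −0.05 and −0.08. The light chain DYNLL1 changed by −0.49 and −0.43 (2e-06 and 5e-06), and the heavy chain DYNC1H1 rose by 0.20 and 0.11 (0.00218 and 0.0427).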

How the data were processed

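RNA sequencing of 9 libraries, 3 per group, was analysed from 1 deposited table of 27059 genes. The authors deposited estimated counts per gene and library with decimals, and expression values that were read here as FPKM, since per the file headers they are called only "exp". The tools listed in the submitters' processing notes, with no role for any, were RSEM 1.2.12, HISAT2 2.0.4, DESeq2 1.4.5 and Bowtie2 2.2.5. The genome build was not given in the sources used. A further 6 columns of group averages were not used. Estimated counts were rounded and fitted with edgeR 4.0.16 in R 4.3.3: TMM factors (0.968 to 1.02), filterByExpr by group, and the robust quasi-likelihood test over all 9 libraries. Benjamini-Hochberg adjustment ran over the 18540 genes tested, with a threshold of 0.05. The common biological coefficient of variation was 7.02%, and library totals ran from 21891060 to 22159921 counts. CPM used TMM-scaled totals. SE is on the log2 scale.

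Values in every library are given for KIFC2, the 16 called kinesins of smallest adjusted p and the pair of highest FPKM in each class. The members, classes and lists were chosen with earlier results of these data known. Alternatives covered DESeq2 1.42.0, normalization, filters, a fold minimum of 1.2, GC content and length (longest GENCODE transcript), the replicate block and leaving out each library. Reads of overlapping genes (KIF20A with CDC23, KIF2A with DIMT1, KIF7 with TICRR, KIF15 with TMEM42, KIF24 with UBAP1 and NUDT2, KIFC2 with FOXH1 and TMEM276, KIFC3 with LOC388282, KIF9 and KIF23 with their antisense genes, and low-count noncoding genes in others) cannot be told apart, since strand is not stated.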

Additional observations from a re-analysis of the deposited data

Results flagged for a closer look

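KIFC2 differed between the hairpin groups by 0.30 on the log2 scale, sh2-HUMT against sh1-HUMT (SE 0.0383, adjusted p = 0.0095, edgeR's quasi-likelihood test over all genes). It met the criterion that the effects of both hairpins against the same control differ by a test of the difference itself. All 3 sh2-HUMT libraries, at 85.4 to 87.8 CPM, were above all 3 sh1-HUMT libraries, at 68.1 to 73.6 CPM, with shNC between them at 74.4 to 78.7 CPM. The gene was chosen with this difference known. Over the alternatives its adjusted p ran from 2.3e-09 to 0.0946.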

How the results depend on the processing

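Of the calls against shNC, 12 of 22 in sh1-HUMT and 12 of 21 in sh2-HUMT were kept under every alternative other than the fold minimum. With at least 1.2-fold required, 9 kinesins were called in sh1-HUMT, 12 in sh2-HUMT and 8 the same way in both. Of all genes, 17.9% and 18.5% were called in sh1-HUMT and sh2-HUMT. Counted in either direction, the sh1-HUMT count is near that of genes in general. By direction, 8 kinesins were higher and 1 lower in sh1-HUMT, where 8.89% of all genes were higher and 9% lower. In sh2-HUMT 10 were higher and 2 lower, where 9.64% were higher and 8.88% lower. KIFC2 was called in neither comparison against shNC (values −0.13 and 0.17). After the GC and length correction no kinesin was called between the hairpin groups by edgeR (0, against 1; 1 higher and 4 lower at an unadjusted p under 0.05), KIFC2 was at 0.03 in sh2-HUMT against shNC and at 0.20 in sh2-HUMT against sh1-HUMT, KIF1C turned to −0.03 and −0.01, and HUMT in sh2-HUMT turned to 0.0048. HUMT ran from 0.0049 to 0.11 in sh1-HUMT and from −0.10 to 0.01 in sh2-HUMT without single libraries, above 0 without shNC replicate 2. Leaving out each library in turn gave 14 to 21 calls in sh1-HUMT (14 without sh1-HUMT replicate 3), 14 to 21 in sh2-HUMT (14 without sh2-HUMT replicate 1), 12 to 19 in both and 0 to 1 between hairpin groups. Of all genes, 4924 were called in sh1-HUMT without sh1-HUMT replicate 3, against 5923 with all libraries. Without sh2-HUMT replicate 1, 4965 genes were called in sh2-HUMT, against 6019. Between hairpin groups 1 to 155 genes were called without single libraries, against 53. Without single libraries KIFC2 ran from −0.17 to −0.11 in sh1-HUMT, from 0.15 to 0.19 in sh2-HUMT and from 0.28 to 0.34 between them. The mitotic minus transport difference in sh1-HUMT was 0.11 with DESeq2 or no filter on low counts, 0.18 after the GC and length correction, 0.14 without KIF2A, 0.08 without KIFC2 or with at least 5 CPM, and 0.07 to 0.13 without single libraries. In sh2-HUMT it was 0.02 with DESeq2 or no filter, 0.20 after the GC and length correction and 0.03 to 0.11 without single libraries. Leaving out KIFC2 gave 0.10 there. The DESeq2 and no-filter settings also counted KIF4B in the mitotic class. Among single calls, DESeq2 and no filter ended KIF1A in sh2-HUMT (adjusted p = 0.0613 and 0.0552), no filter ended KIF1C in sh1-HUMT (0.0622), upper-quartile normalization ended KIF21B in sh1-HUMT (0.0534), and DESeq2, upper-quartile normalization or no filter ended KIF7 in sh1-HUMT (0.0617, 0.0533 and 0.0574). A fit of only the groups compared ended KIF1C, KIF2A and KIF7 in sh1-HUMT (0.064, 0.0596 and 0.0531) and KIF1B in sh2-HUMT (0.0533). The cause of these changes was not tested.

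Whether replicate numbers mark a batch is not stated. Deviations of same-numbered libraries correlated between −0.149 and 0.179, and those of differently numbered libraries between −0.317 and 0.25. Same-numbered pairs were all positive for replicates 1 and 2, at 0.052 to 0.179, while replicate 3 gave 0.04, −0.125 and −0.149. With the replicate block, 22 kinesins were called in sh1-HUMT against shNC, 20 in sh2-HUMT against shNC and 1 in sh2-HUMT against sh1-HUMT. Called the same way in both comparisons against shNC were 17. Of all genes, 5717, 5778 and 29 were called with the block in the same order, against 5923, 6019 and 53 without it. Among kinesins, KIF1A in sh2-HUMT was the call that ended (adjusted p = 0.0625). With 3 libraries a group, kinesins under about 5 CPM had wide intervals, such as −0.24 to 1.17 for KIF6 in sh1-HUMT.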

Other observations

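KIF24, a ciliary kinesin, had its lowest estimated count in replicate 2 of each group, at 298 in sh1-HUMT, 315 in sh2-HUMT and 291 in shNC, beside 346 to 458 in the other hairpin-labelled libraries and 399 and 433 in the other shNC libraries. Its gene body overlaps those of UBAP1, with 1658 to 2057 counts per library, and NUDT2, with 176 to 203, and shared reads cannot be told apart. Its FPKM moved more widely than its counts, from 1.70 to 4.63 over the 9 libraries. Whether replicate numbers mark a batch is not stated, and KIF24 was chosen after its values were seen.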
